A study of Mus musculus with 64 samples.

Results

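The clustered protocadherins are the protein-coding genes named Pcdha, Pcdhb and Pcdhg that stand side by side in 3 clusters of the mouse genome. They were taken from the deposited gene counts of mouse hippocampus by symbol and gene type, which gave 57 of 32227 genes: 14 in the alpha cluster, 22 in the beta cluster and 21 in the gamma cluster. The symbol Pcdha11 stands for 2 identifiers in the table, which were counted as 2 genes. They stand at places 10 and 11 of the alpha cluster, between Pcdha9 and Pcdha12, and none of the 57 genes carries the symbol Pcdha10. The hippocampal RNA came from 8 inbred strains, with 4 female and 4 male libraries in each, 64 in all. Of these, 5 are classical laboratory strains, C57BL/6J, 129S1/SvImJ, NOD/ShiLtJ, A/J and NZO/HlLtJ, and 3 are wild-derived, namely PWK/PhJ, WSB/EiJ and CAST/EiJ. The labels name no treatment, transgene or age, and they write some strain names with another character in place of the slash. They do not say that the libraries of a group came from separate animals, so the p-values measure only the spread between these libraries, which may be technical. Sample titles number the females of CAST/EiJ from 639 to 643 and every other library from 311 to 462, so in that strain sex and this block of numbers cannot be told apart.

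Clustered protocadherins are cadherin-like adhesion proteins of the neuronal surface that bind the same isoform on a facing membrane. In the alpha and gamma clusters, each variable exon has its own promoter and codes for the whole extracellular part of a protein, and it is spliced to constant exons shared by its cluster, while each beta gene is a single exon with no constant part. A neuron picks a few of the alternate isoforms, largely at random and separately on each chromosome, through CTCF and cohesin, whereas the C-type isoforms at the end of the alpha and gamma clusters are used without such a draw. The resulting combinations let a neuron tell its own branches from those of others, and loss of the gamma cluster impairs dendrite self-avoidance and neuronal survival.

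The libraries held 16607602 to 27759221 counts, of which the 57 genes took 0.0956% to 0.120%, or 18712 to 30286 counts per library. Levels are CPM, the counts of a gene relative to the total of its library, scaled with TMM factors, as mean ± SD over the 8 libraries of a strain unless stated. The mean correlation of a library with the others of its group, over genes, was 0.98 or more. In 4 libraries the balance between genes with short and genes with long transcripts was shifted towards short ones. These were A/J male 2, 129S1/SvImJ female 1, WSB/EiJ female 1 and C57BL/6J male 4, with a log2 ratio of -2.41, -2.47, -2.62 and -2.87, and the next highest was CAST/EiJ female 4 at -3.12. The ratio sets the summed CPM of genes whose longest transcript is under 1000 bases against that of genes with one over 6000 bases. Leaving them out moved the strain means of Pcdhgc4 by up to 1.36 times, and those of the other members and of the runs of neighbours named here by at most 1.14 times. The 11 markers of hippocampal neurons summed to 3269 to 4181 CPM per library, and 3 of them were themselves called for strain, with log2 ranges of 5.13 for Dsp, 1.88 for Wfs1 and 1.70 for C1ql2. Sums of other marker lists were wider, with 17.5 to 4812 CPM per library for 7 choroid plexus markers, 2639 to 6199 CPM for 6 oligodendrocyte markers and 2558 to 5596 CPM for 6 astrocyte markers. The serotonin neuron markers Tph2, Slc6a4 and Fev summed to 0.538 to 2.23 CPM. The part of these cell types in the results was not tested. A fit with the choroid plexus level as a covariate called 39 members for strain, as many as the fit without it. The covariate entered the test behind a call but not its fold minimum, both given below. This count therefore cannot show whether the sizes of the strain differences depend on choroid plexus.

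All 57 genes passed the filter on low counts, and 39 of them (68.4%) differed among the 8 strains. The call needed an adjusted p under 0.05 in the F test of edgeR's quasi-likelihood fit with Benjamini-Hochberg adjustment, and at least 1 log2 unit between the lowest and the highest strain. Among all 17382 genes tested, 26.3% met the same criteria. Without the fold minimum, 56 of 57 passed, against 89.2% of all genes. The median range of the 57 genes was 1.26 on the log2 scale, and that of all genes tested was 0.54. Among the alternate isoforms, 38 of 52 were called, in all 3 clusters: 9 of 12 in the alpha cluster, 14 of 22 in the beta cluster, 9 of 12 gamma A genes and 6 of 6 gamma B genes. Of the 5 C-type isoforms, Pcdhac1 was called. In the map of strain means, high and low members stood side by side in every strain. The median log2 difference of the 57 genes from the other 7 strains ran from -0.11 in WSB/EiJ to 0.19 in 129S1/SvImJ.

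**Figure D1:**
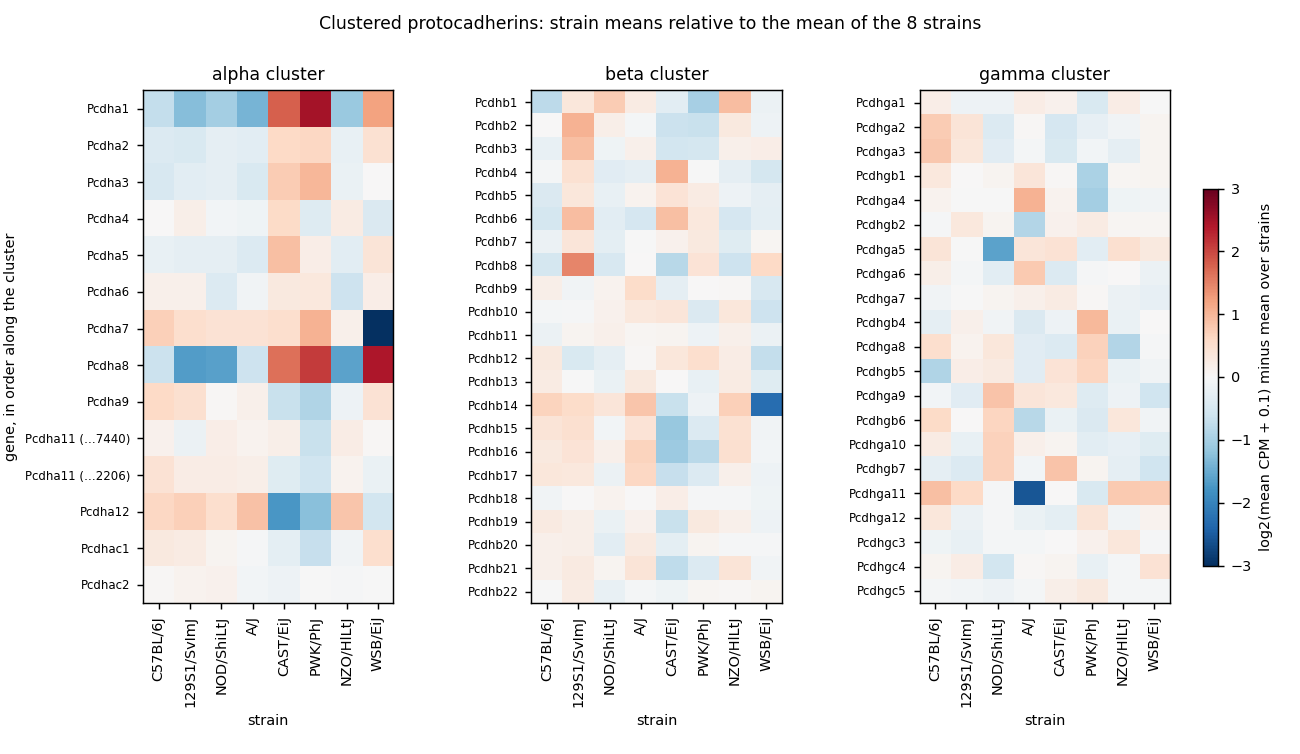
Mean level of each clustered protocadherin (rows, in order along its cluster) in each of the 8 strains (columns, 8 libraries each), as log2(mean CPM + 0.1) minus the mean of that value over the strains. Red is above and blue below the gene's own mean, and the scale ends at 3 in both directions. The deepest blue cells are Pcdha7 and Pcdhb14 in WSB/EiJ and Pcdhga11 in A/J, and the rows of Pcdhac2, Pcdhgc3 and Pcdhgc5 are among the palest.

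The levels summed over each cluster differed among strains most in the beta cluster. The alpha sum ran from 172.6 ± 12.1 CPM in A/J to 203.3 ± 10.2 CPM in PWK/PhJ, a ratio of 1.18. The gamma sum, the largest, ran from 721.6 ± 38.0 CPM in NOD/ShiLtJ to 801.3 ± 37.2 CPM in C57BL/6J, a ratio of 1.11. The beta sum ran from 130.1 ± 9.45 CPM in WSB/EiJ to 191.6 ± 12.8 CPM in 129S1/SvImJ, a ratio of 1.47. The C-type isoforms make up a large part of the alpha and gamma sums. Of the alternate isoforms alone, the ratio was 1.41 for the alpha sum, 1.41 for the gamma A sum, 1.60 for the gamma B sum and 1.22 for gamma A and gamma B together, and it was 1.19 for the 5 C-type isoforms. These sums are descriptions without a test, and the libraries of neighbouring strains overlapped in each. The highest beta strains, 129S1/SvImJ and A/J, had ranges of 164.8 to 204.1 and 142.1 to 191.2 CPM, and the beta libraries of WSB/EiJ ended at 141.2 CPM. All 57 genes together ran from 1042 ± 47.4 CPM in NOD/ShiLtJ to 1143 ± 56.5 CPM in C57BL/6J. Without the 4 libraries of shifted transcript balance, the ratios of the highest to the lowest strain mean were 1.16 for alpha, 1.47 for beta and 1.12 for gamma. Abundant genes spread less in general: the median log2 ratio of the highest to the lowest strain mean was 0.28 over the 2276 genes with a mean of at least 100 CPM, against 0.24 for the alpha, 0.56 for the beta and 0.15 for the gamma sum.

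**Figure D2:**
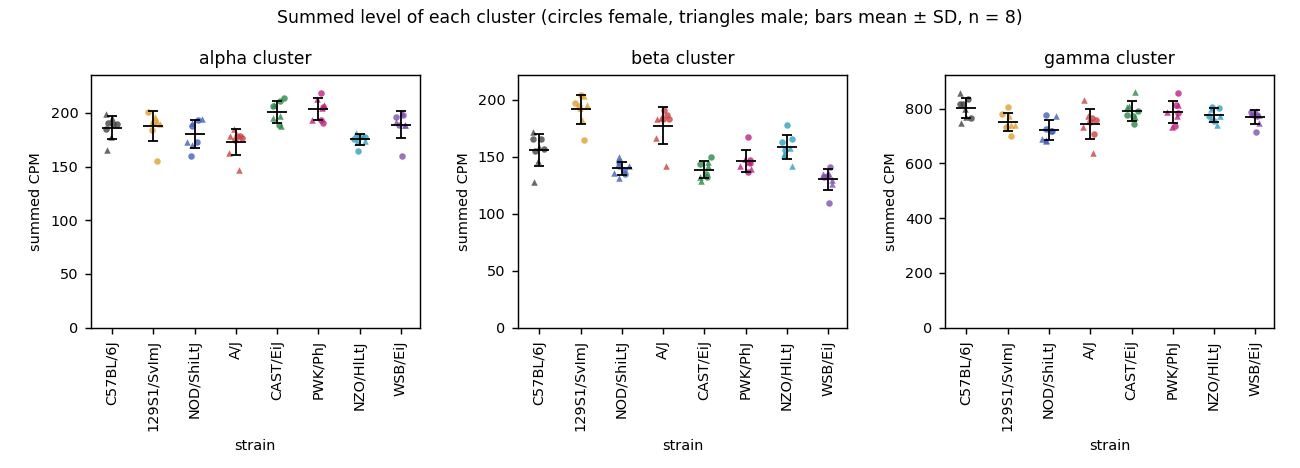
Summed CPM of the alpha, beta and gamma clusters in each of the 64 libraries (circles female, triangles male), with the mean ± SD of each strain (n = 8) as bars. The strain means of the alpha sum lie between 172.6 and 203.3 CPM and those of the gamma sum between 721.6 and 801.3 CPM, while the beta sum reaches 191.6 CPM in 129S1/SvImJ and falls to 130.1 CPM in WSB/EiJ.

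How members varied together was read from variances over the 8 strain means. If members varied independently of each other, the variance of their sum would equal the sum of their variances. The ratio of the former to the latter was 0.47 in the alpha cluster, 0.39 in the gamma cluster and 4.2 in the beta cluster, where members tended to be high in the same strains. Without the C-type isoforms the ratio was nearer 1, at 0.83 for the alternate alpha and 0.74 for the alternate gamma isoforms. Within the gamma A genes and within the gamma B genes it was above 1, at 1.21 and 1.24. The coefficient of variation over strains was 34.2% for the median alpha member and 5.90% for the alpha sum. In the gamma cluster these values were 31.6% and 3.53%, and in the beta cluster 27.0% and 13.5%. For the sums of alternate isoforms alone it was 13.4% in the alpha and 6.96% in the gamma cluster. These ratios describe 8 points per gene, and all CPM values share the scaling of their library. They are given for all 64 libraries only, including the 4 of shifted transcript balance, which moved the strain means of Pcdhgc4.

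In every strain the gamma cluster held the largest share of the clustered protocadherin counts, from 66.5% ± 1.10 in 129S1/SvImJ to 70.7% ± 0.864 in WSB/EiJ. The alpha share ran from 15.8% ± 0.510 in A/J to 17.9% ± 0.826 in PWK/PhJ. The beta share was lowest in WSB/EiJ, at 11.9% ± 0.440, and highest in 129S1/SvImJ, at 16.95% ± 0.691. The 5 C-type isoforms took 44.5% ± 3.37 of the counts in C57BL/6J and 49.9% ± 2.34 in WSB/EiJ, which were the ends of the range. The C-type share was highest in the library of shifted transcript balance in each of the strains that hold one, up to 55.8% in 129S1/SvImJ. At a mean of 1 CPM or more, 55 or 56 of the 57 genes were present in each strain. The genes below that level were Pcdhb1 in all 8 strains, Pcdha8 in 129S1/SvImJ, NOD/ShiLtJ and NZO/HlLtJ, and Pcdha7 in WSB/EiJ.

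C-type isoforms stood highest per length. Per kilobase of exon that no other clustered protocadherin of the annotation shares, Pcdhgc3 had 41.2 CPM, Pcdhgc5 35.7, Pcdhgc4 29.4 and Pcdhac2 24.5. The median alternate isoform had 3.13 CPM per kilobase, with a range from 0.115 for Pcdhb1 to 13.9 for Pcdhga4. Pcdhac1, at 3.27 CPM per kilobase, was near the alternate isoforms in level. How the counting treated reads in the constant exons was not given, so levels per own exon of alpha and gamma genes are approximate.

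Pcdhgc3, which has been tied to dendrite branching in cortical neurons, was lowest in 129S1/SvImJ at 119.3 ± 20.5 CPM (70.7 to 132.8, median 125.3). It was highest in NZO/HlLtJ at 174.8 ± 8.76 CPM (161.7 to 188.4, median 177.3). The libraries of NZO/HlLtJ overlapped with the top library of PWK/PhJ, at 164.7 CPM. The fitted difference of NZO/HlLtJ from the other 7 strains was 0.39 ± 0.06 (SE) on the log2 scale, under the fold minimum, with an edgeR adjusted p of 8.6e-07. Pcdhgc5, which binds GABA-A receptors, was highest in PWK/PhJ at 239.8 ± 25.9 CPM (209.2 to 283.9, median 236.0) and lowest in NOD/ShiLtJ at 177.6 ± 19.3 CPM (146.4 to 204.4, median 175.5). These 2 strains did not overlap, while the libraries of CAST/EiJ, at 184.8 to 247.5 CPM, lay across both. The range of Pcdhgc5 was 0.43 on the log2 scale. Pcdhac2, needed for the even spacing of serotonin axons, had the narrowest range of all 57 genes, 0.28, between 67.0 ± 4.73 CPM in CAST/EiJ and 81.3 ± 5.66 CPM in NOD/ShiLtJ. Without the 4 libraries of shifted balance, the ratio of the highest to the lowest strain mean was 1.38 for Pcdhgc3, 1.35 for Pcdhgc5 and 1.26 for Pcdhac2, whose highest strain was then 129S1/SvImJ at 84.5 ± 3.26 CPM.

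Pcdhgc4, the isoform that neuronal survival depends on in the gamma cluster, was the 1 gene of the 57 that did not pass the strain test at any fold. Its edgeR adjusted p was 0.12, with strain means from 68.1 ± 20.5 CPM in NOD/ShiLtJ to 134.7 ± 50.1 CPM in WSB/EiJ. Its spread within strains was wide, reaching 58.6 to 336.1 CPM in 129S1/SvImJ. The 4 libraries of shifted transcript balance held its 4 highest levels, 336.1, 271.4, 246.8 and 230.3 CPM, and the same libraries held the lowest Pcdhgc5 of their strains, between 108.4 and 133.5 CPM. Without these libraries the strain means of Pcdhgc4 ran from 68.1 to 118.6 CPM. Pcdhac1 was the C-type isoform with a call, from 5.01 ± 1.37 CPM in PWK/PhJ (2.65 to 7.01, median 4.80) to 11.5 ± 1.64 CPM in WSB/EiJ (8.17 to 13.01, median 11.8). PWK/PhJ and WSB/EiJ did not overlap, while the other strains bridged the gap, and the range was 1.23 on the log2 scale (edgeR adjusted p = 1.1e-14). The lowest WSB/EiJ value was that of female 1, and without the 4 libraries of shifted balance the WSB/EiJ mean was 12.03 ± 0.984 CPM (n = 7) and the range 1.29.

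**Figure D3:**
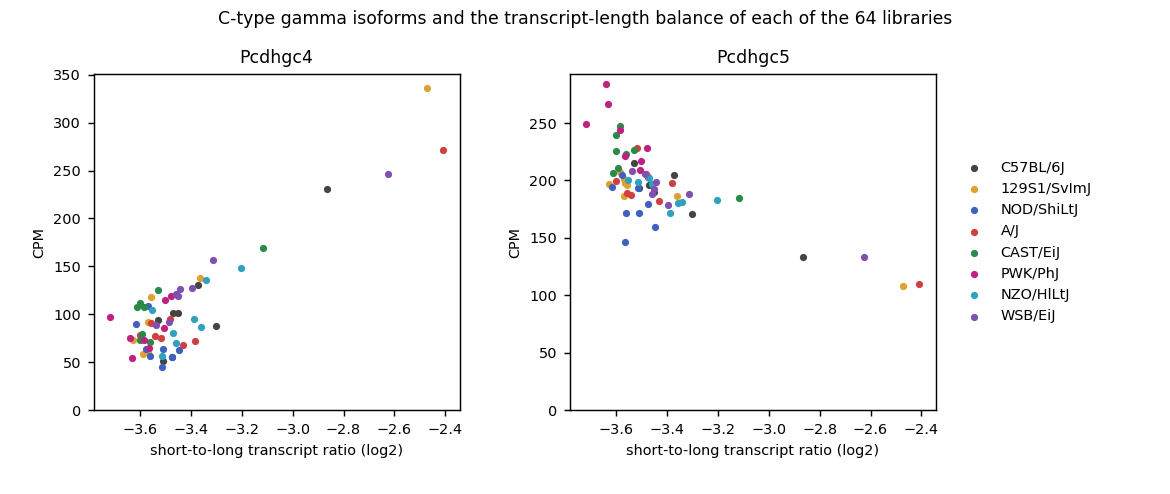
CPM of Pcdhgc4 (left) and Pcdhgc5 (right) in each of the 64 libraries, coloured by strain, against the log2 ratio of summed CPM of genes with short to genes with long transcripts. The 4 libraries at the right, with ratios between -2.87 and -2.41, hold Pcdhgc4 at 230.3 to 336.1 CPM and Pcdhgc5 at 108.4 to 133.5 CPM.

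The levels of the clusters also followed this balance beyond the 4 libraries. Values were centred on the 16 groups of strain and sex, and 4 relations over the 64 libraries were computed, with p from 100000 permutations within groups. Pearson's r was -0.79 for the alpha sum, -0.78 for the beta sum, -0.62 for the gamma sum and 0.78 for Pcdhgc4, and Spearman's rho was -0.66, -0.65, -0.50 and 0.61. The permutation p-values of r, before adjustment, were 1e-05 for alpha, beta and Pcdhgc4, the smallest such permutations can give, and 9.0e-05 for gamma. For rho the permutation p-values adjusted over the 4 relations were 2e-05 for alpha and beta, 0.00024 for gamma and 8.0e-05 for Pcdhgc4. Without the 2 libraries farthest from the median, r was -0.72, -0.72, -0.49 and 0.68, and without the 4 libraries of highest ratio it was -0.61, -0.59, -0.40 and 0.62. Of the 57 genes, 52 had a negative r within groups, 29 of them at -0.5 or below. The part of this balance in each strain difference was not tested. A fit with the ratio as a covariate called 39 genes for strain, as many as the fit without it. The covariate entered the F test of that fit but not the range of strain means. This count therefore cannot show whether the ranges depend on the balance.

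Among the alternate alpha isoforms, 3 separated the wild-derived from the classical libraries. Pcdha1 and Pcdha8 were higher in all 24 wild-derived libraries than in all 40 classical ones, and Pcdha12 was lower in all of them. Among all genes tested, 0.0978% were that far above and 0.167% that far below. No fit contrasted the wild-derived strains with the classical ones as groups, and in bulk RNA fewer neurons that use an isoform and less of its RNA per neuron cannot be told apart. Whether reads were aligned to strain genomes is not given in the sources used here. Reads lost or misplaced through sequence differences between strains therefore cannot be told apart from differences in RNA, for these genes and the other members. Alternate alpha genes differ in the recognition domains of their variable exon and share the intracellular part.

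Pcdha1, the first alternate exon, had 25.8 ± 10.2 CPM in PWK/PhJ (17.1 to 47.4, median 22.5), 15.8 ± 2.26 in CAST/EiJ (11.5 to 18.2, median 15.97) and 10.5 ± 1.28 in WSB/EiJ (8.36 to 12.3, median 10.5). In the classical strains its means lay between 1.63 ± 0.613 CPM in A/J and 2.68 ± 0.849 CPM in C57BL/6J, and no classical library exceeded 4.38 CPM. Against the other 7 strains the log2 differences were 2.91 ± 0.10 (SE) in PWK/PhJ, 2.11 ± 0.10 in CAST/EiJ and 1.43 ± 0.11 in WSB/EiJ, with edgeR adjusted p-values of 1.2e-32, 4.0e-25 and 2.1e-16. Within PWK/PhJ the library female 3, at 47.4 CPM, stood well above the rest. Pcdha12, the last alternate exon, ran the other way. It had 3.49 ± 1.04 CPM in CAST/EiJ (2.22 to 5.12, median 3.37), 4.98 ± 1.13 in PWK/PhJ (3.24 to 6.22, median 5.27) and 8.16 ± 1.42 in WSB/EiJ (5.84 to 10.6, median 8.04). The classical strains had 16.96 ± 2.88 CPM in NOD/ShiLtJ to 22.1 ± 2.84 CPM in A/J, and their lowest library, at 13.8 CPM, was above the highest wild-derived one. The difference from the other 7 strains was called in CAST/EiJ (log2 -2.03 ± 0.11 SE, edgeR adjusted p = 5.3e-24) and PWK/PhJ (-1.44 ± 0.10, 1.3e-18). In WSB/EiJ it was under the fold minimum, at -0.63 ± 0.09. A/J was called higher, at 1.02 ± 0.08, and fell under the fold minimum, to 0.97 at the lowest, without female 1 or without male 3.

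Sums over the first 5 and the last 4 alternate alpha genes, a grouping made after these values were seen, separated the wild-derived from the classical libraries. Each sum holds a gene that did so alone, Pcdha1 or Pcdha12. The sums are therefore no separate evidence for a difference shared by neighbours, and sums without these genes were not computed. Pcdha1 to Pcdha5 summed to 85.5 ± 4.82 CPM in CAST/EiJ, 81.0 ± 13.8 in PWK/PhJ and 55.7 ± 4.03 in WSB/EiJ, against 36.2 ± 2.86 to 43.1 ± 3.18 in the classical strains. The lowest wild-derived library, at 51.1 CPM, was above the highest classical one, at 47.9 CPM. The 4 genes from Pcdha9 to Pcdha12 summed to 16.4 ± 1.52 CPM in PWK/PhJ, 19.7 ± 1.63 in CAST/EiJ and 29.6 ± 2.82 in WSB/EiJ, and to 38.3 ± 4.62 to 43.9 ± 2.75 in the classical strains. Here, too, the wild-derived and classical libraries did not overlap, with 32.7 CPM the highest of the former and 33.9 CPM the lowest of the latter. Single members of these runs did not all follow their sum. Pcdha4, in the first run, was lower in WSB/EiJ (10.6 CPM) and PWK/PhJ (10.9 CPM) than the classical strains, at 13.1 to 17.1 CPM. Pcdha9, in the last run, had 10.2 CPM in WSB/EiJ, above the means of NOD/ShiLtJ, A/J and NZO/HlLtJ at 7.77, 8.41 and 6.80 CPM. The most abundant alternate alpha isoform was Pcdha12 in the 5 classical strains, with 18.3% to 23.4% of the alternate alpha total. It was Pcdha4 in CAST/EiJ with 16.6%, Pcdha1 in PWK/PhJ with 20.3% and Pcdha5 in WSB/EiJ with 13.3%.

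Pcdha4, the alternate alpha isoform of highest mean level over all libraries, ranged from 10.6 ± 1.82 CPM in WSB/EiJ to 21.2 ± 2.24 CPM in CAST/EiJ. Its range fell just under the fold minimum, at just under 1 on the log2 scale, with an edgeR adjusted p of 4.7e-14. The range passed with DESeq2 size factors, where the edgeR and DESeq2 fits share the same value of 1.0046, and with no count filter. It ran from 0.96 to 1.05 as each library was left out.

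Pcdha7 and Pcdha8, neighbours and the most alike pair of alpha genes, had opposite extremes in WSB/EiJ. Pcdha7 had 0.254 ± 0.167 CPM there (0 to 0.502, median 0.289), from 44 counts over the 8 libraries with 1 library at 0. In the other strains its means lay between 5.37 ± 0.885 CPM in NZO/HlLtJ and 9.95 ± 1.84 CPM in PWK/PhJ, and no library was below 3.96 CPM, so WSB/EiJ was separate. The log2 difference from the other 7 strains was -4.79 ± 0.20 (SE), with an edgeR adjusted p of 7.8e-28. Pcdha8 had its highest level in WSB/EiJ, 9.81 ± 2.01 CPM (6.22 to 11.98, median 10.7), a log2 difference of 2.95 ± 0.13 (adjusted p = 5.3e-26). It was at 7.73 ± 1.33 CPM in PWK/PhJ (5.47 to 10.2, median 7.57) and 5.64 ± 1.53 in CAST/EiJ (3.04 to 7.49, median 5.84). The classical strains had 0.477 ± 0.149 CPM in 129S1/SvImJ to 1.10 ± 0.616 CPM in A/J, with no library above 2.06 CPM.

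The pair summed to 10.1 ± 2.03 CPM in WSB/EiJ, within the range of the other strains, 5.87 ± 1.02 in NZO/HlLtJ to 17.7 ± 1.31 in PWK/PhJ. The own exons of Pcdha7 and Pcdha8 are identical at 85.6% of 2298 aligned bases in the annotation of the earlier build. Of the 75-base windows of Pcdha7's own exon, 13.9% occur in another clustered protocadherin, for Pcdha8 9.65%, and over all 57 genes this share ran from 0 to 13.9%. Genes outside the clusters were not searched for these windows. Both genes are uncertain to the extent that reads of 1 were counted for the other, and whether reads were aligned to strain genomes is not given in the sources used here.

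**Figure D4:**
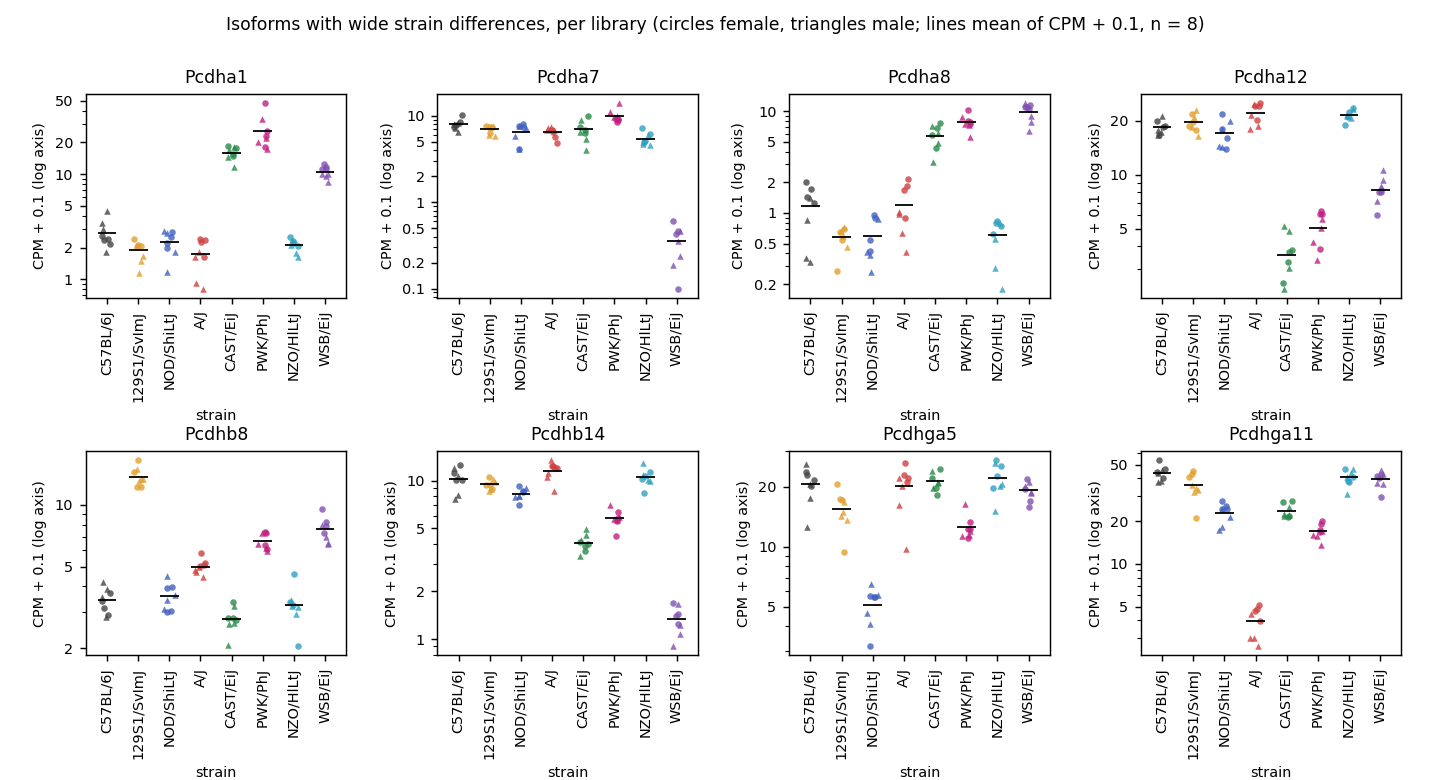
CPM + 0.1 on a log axis in each of the 64 libraries (circles female, triangles male) for 8 isoforms, with a line at the strain mean (n = 8). Pcdha7 lies near 0.3 in WSB/EiJ, where Pcdha8 is highest, Pcdha1 and Pcdha12 separate the wild-derived from the classical strains in opposite directions, and Pcdhb8, Pcdhb14, Pcdhga5 and Pcdhga11 each have 1 strain apart from the rest.

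Beta genes code for complete proteins without the constant part. In 129S1/SvImJ, 4 beta genes were higher than in the other 7 strains, Pcdhb2, Pcdhb3, Pcdhb6 and Pcdhb8, against 2.12% of all genes tested. Pcdhb8 had 13.7 ± 1.47 CPM there (12.1 to 16.4, median 13.3), and the highest other library, from WSB/EiJ, had 9.40 CPM. The log2 difference was 1.69 ± 0.06 (SE), with an edgeR adjusted p of 2.1e-30. The other strains had 2.69 ± 0.397 CPM in CAST/EiJ to 7.51 ± 1.02 CPM in WSB/EiJ. Pcdhb3 was likewise separate in 129S1/SvImJ, at 16.1 ± 2.43 CPM (13.5 to 20.1, median 15.2), with 12.9 CPM the highest elsewhere. Its log2 difference was 1.05 ± 0.07 (adjusted p = 3.2e-19), and it was just under the fold minimum, without 129S1/SvImJ female 1 and without the 4 libraries of shifted balance. Of the 57 genes, these 2 stood above all other libraries in 129S1/SvImJ, where 0.167% of all genes did.

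The 7 genes from Pcdhb2 to Pcdhb8, a run chosen after these values were seen, summed to 77.5 ± 5.90 CPM in 129S1/SvImJ (68.5 to 87.4). The other strains had 38.0 ± 3.82 CPM in C57BL/6J to 52.4 ± 3.67 CPM in CAST/EiJ, with no library above 61.5 CPM. A later run, Pcdhb13 to Pcdhb17, was also chosen after these values were seen. It summed to 22.0 ± 1.64 CPM in CAST/EiJ, 25.8 ± 1.43 in PWK/PhJ and 25.8 ± 2.85 in WSB/EiJ. In the classical strains it had 34.3 ± 1.98 CPM in NOD/ShiLtJ to 52.2 ± 5.42 CPM in A/J. The groups did not overlap, since the highest wild-derived library had 29.0 CPM and the lowest classical one 31.8 CPM. The run includes Pcdhb14, at 1.24 CPM in WSB/EiJ, and its sum without that gene was not computed. No share of other gene runs with such a gap is given, so the gap is a description only. Each single gene of this run overlapped between the groups, since Pcdha12 was the only member lower in all wild-derived libraries than in all classical ones. Pcdhb13, for example, had libraries at 5.39 to 8.18 CPM in CAST/EiJ and 4.04 to 6.97 CPM in NOD/ShiLtJ.

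Within that run, Pcdhb14 was low in WSB/EiJ. It had 1.24 ± 0.275 CPM there (0.807 to 1.60, median 1.23), and all other libraries had 3.25 CPM or more. The log2 difference was -2.70 ± 0.10 (SE), with an edgeR adjusted p of 2.3e-31. Pcdhb14 had 3.97 ± 0.502 CPM in CAST/EiJ, 5.69 ± 0.720 in PWK/PhJ and 8.17 ± 0.706 to 11.5 ± 1.47 in the classical strains. With Pcdha7, it was 1 of 2 of the 57 genes that lay below all other libraries in WSB/EiJ, as did 0.408% of all genes. CAST/EiJ had lower Pcdhb15 and Pcdhb16 and higher Pcdhb4 and Pcdhb6 than the other 7 strains.

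Pcdhb9, the beta gene of highest mean level, ran from 10.7 ± 0.902 CPM in WSB/EiJ to 22.0 ± 1.66 CPM in A/J (18.7 to 23.9, median 22.5). A/J overlapped with the top library of NOD/ShiLtJ at 20.8 CPM. Pcdhb1, at the start of the cluster, was close to the limit of detection. Its means ran from 0.0821 ± 0.0845 CPM in PWK/PhJ, 13 counts over 8 libraries with 2 at 0, to 0.584 ± 0.242 CPM in NZO/HlLtJ, from 107 counts. It was called lower in C57BL/6J and PWK/PhJ and higher in NOD/ShiLtJ and NZO/HlLtJ, and no library of any strain held more than 24 counts of it.

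Gamma A and gamma B genes alternate along the gamma cluster and share its constant exons, and here single isoforms stood out in single strains. Pcdhga11, the gamma A gene of highest mean level, had 3.87 ± 0.965 CPM in A/J (2.55 to 5.08, median 4.11). The other strains had 16.8 ± 2.03 CPM in PWK/PhJ to 43.7 ± 5.23 CPM in C57BL/6J, and no library below 13.4 CPM. The log2 difference of A/J was -2.98 ± 0.11 (SE), with an edgeR adjusted p of 1.3e-30. It was the 1 gene of the 57 below all other libraries in A/J, where 0.121% of all genes were. In C57BL/6J it was called higher, at 1.04 ± 0.07 (adjusted p = 1.5e-18), with libraries at 37.4 to 53.5 CPM that overlapped those of NZO/HlLtJ, WSB/EiJ and 129S1/SvImJ. None of the 75-base windows of Pcdhga11's own exon occurs in another clustered protocadherin, and other genes were not searched.

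Other gamma genes were higher in A/J than elsewhere. Pcdhga4 had 42.5 ± 10.05 CPM there (21.3 to 50.2, median 46.3), against 10.1 ± 2.14 CPM in PWK/PhJ and 18.6 ± 2.06 to 22.1 ± 2.24 CPM in the 6 other strains. The lowest A/J value was that of male 2, and the other 7 A/J libraries were above the 28.9 CPM that is the highest value of any other strain. The log2 difference was 1.21 ± 0.10 (SE) in A/J and -1.17 ± 0.12 in PWK/PhJ, with edgeR adjusted p-values of 2.9e-15 and 1.0e-11. Without the 4 libraries of shifted balance, Pcdhga4 had 45.6 ± 5.64 CPM in A/J (n = 7), and the log2 differences were 1.28 and -1.23. Pcdhga6, named after its values were seen, had 36.1 ± 8.41 CPM in A/J and a highest mean of 23.6 ± 3.93 CPM elsewhere, a log2 difference of 0.90, under the fold minimum. Without A/J male 2 its mean there was 38.8 ± 4.13 CPM (n = 7). With these, the gamma A sum of A/J was 243.7 CPM, inside the range of the 8 strains, 202.6 to 286.1 CPM.

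Pcdhga5 had 5.02 ± 1.07 CPM in NOD/ShiLtJ (3.09 to 6.39, median 5.48), below all other libraries, of which the lowest was a 129S1/SvImJ library at 9.34 CPM. The means elsewhere ran from 12.4 ± 1.70 CPM in PWK/PhJ to 22.0 ± 4.06 CPM in NZO/HlLtJ. The log2 difference was -1.86 ± 0.12 (SE), with an edgeR adjusted p of 1.5e-18, and 0.173% of all genes were below all other libraries in that strain. Further along the cluster NOD/ShiLtJ was high. The 4 genes from Pcdhga9 to Pcdhgb7, a run chosen after these values were seen, summed to 112.1 ± 6.96 CPM (103.8 to 121.9), with 51.3 ± 5.01 to 84.4 ± 6.97 CPM in the other strains and no other library above 94.3 CPM. In C57BL/6J the neighbours Pcdhga2 and Pcdhga3 summed to 55.7 ± 3.98 CPM (47.7 to 60.2), against 23.1 ± 3.47 to 41.6 ± 9.39 CPM elsewhere, with an overlap at the top of 129S1/SvImJ (50.6 CPM). Without female 1, at 20.1 CPM, the pair summed to 44.7 ± 3.90 CPM in 129S1/SvImJ (n = 7).

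**Figure D5:**
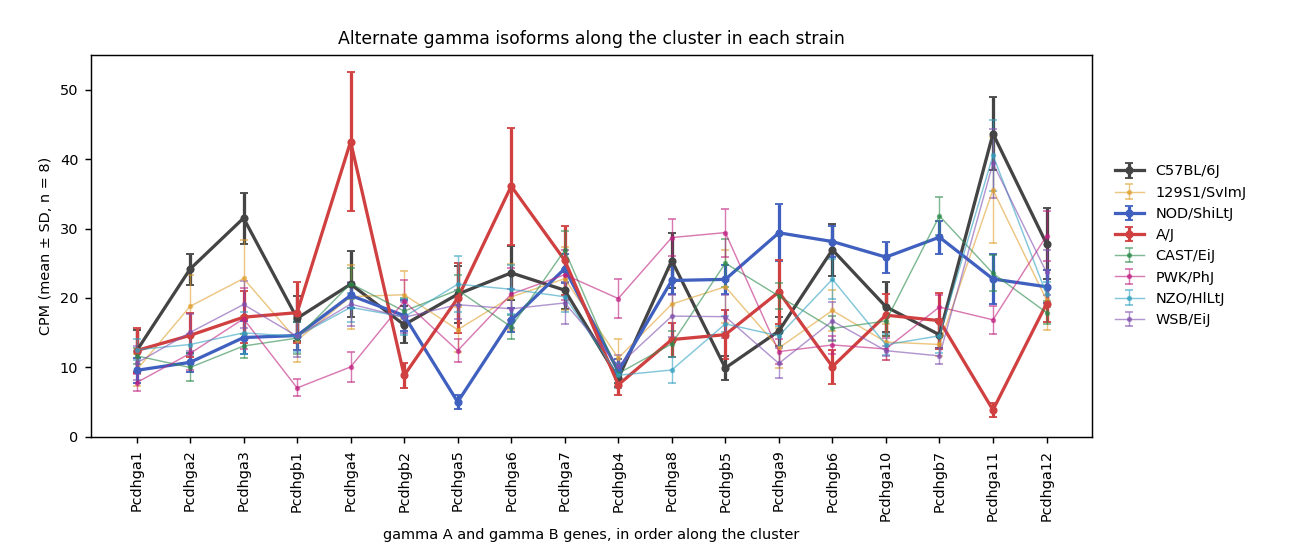
Mean CPM ± SD (n = 8) of the 18 gamma A and gamma B genes, in order along the cluster, for each strain as a line. A/J (red) rises to 42.5 CPM at Pcdhga4 and 36.1 CPM at Pcdhga6 and drops to 3.87 CPM at Pcdhga11, NOD/ShiLtJ (blue) drops to 5.02 CPM at Pcdhga5, and C57BL/6J (black) has peaks at Pcdhga3 and Pcdhga11.

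All 6 gamma B genes were called for strain, with ranges of 1.22 to 1.57 on the log2 scale. Pcdhgb5, the most abundant, had 9.91 ± 1.73 CPM in C57BL/6J (6.88 to 12.5, median 10.03) and 29.4 ± 3.44 CPM in PWK/PhJ (21.9 to 32.8, median 29.9), which did not overlap. The C57BL/6J libraries did overlap with those of A/J at 7.37 to 19.5 CPM. The difference of C57BL/6J from the other 7 strains was -1.04 ± 0.11 (SE) on the log2 scale (edgeR adjusted p = 1.3e-11), and it fell under the fold minimum, at -0.98, without female 4 or without male 4 of that strain. Pcdhgb6 had 10.1 ± 2.44 CPM in A/J (4.38 to 12.2, median 10.9) and 28.1 ± 2.27 CPM in NOD/ShiLtJ (25.4 to 31.2, median 27.3), with no overlap between them. The lowest A/J value was that of male 2, and without the 4 libraries of shifted balance A/J had 10.9 ± 0.847 CPM (n = 7) and the log2 range of Pcdhgb6 was 1.37 in place of 1.52. Pcdhgb7 was lowest in WSB/EiJ, at 11.7 ± 1.16 CPM (9.98 to 13.4, median 11.8), and highest in CAST/EiJ, at 31.8 ± 2.80 CPM (27.6 to 36.6, median 31.7). CAST/EiJ and NOD/ShiLtJ, at 28.8 ± 2.38 CPM, were both above the libraries of the other 6 strains, whose highest value was 22.1 CPM.

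Calls against the mean of the other 7 strains ran from 3 of the 57 genes in C57BL/6J to 10 of the 57 in PWK/PhJ. Among all 17382 genes tested, 670 were called in C57BL/6J and 1625 in PWK/PhJ. The 8 contrasts share samples, and counts below are out of 57. C57BL/6J had 1 gene higher and 2 lower, where 2.3% and 1.56% of all genes tested were called. In 129S1/SvImJ 2 alpha genes were lower beside the 4 beta genes above, with 1.51% of all genes lower. NOD/ShiLtJ had 1 higher and 3 lower, against 2.75% and 1.16% of all genes. A/J had 2 higher, Pcdha12 and Pcdhga4, and 3 lower, against 2.17% and 1.42%. The count of higher genes in A/J was 1 without female 1 or male 3 and reached 4 without male 2, the library of shifted balance. CAST/EiJ had 5 higher and 3 lower, against 4.02% and 5.22%. PWK/PhJ, with 5 higher and 5 lower, had the most calls, against 3.75% and 5.6% of all genes. NZO/HlLtJ had 1 higher and 3 lower, against 2.67% and 0.978%, and WSB/EiJ 2 higher and 2 lower, against 2.51% and 2.43%. Pcdha8 was called in 6 of the 8 contrasts and Pcdha1 in 7. CAST/EiJ and PWK/PhJ each had 1 gene above all other libraries, Pcdha5 and Pcdhgb4, where 2.15% and 2.09% of all genes lay as high. None of the 57 lay above all other libraries in C57BL/6J, NOD/ShiLtJ, A/J, NZO/HlLtJ or WSB/EiJ, as did 0.259%, 0.144%, 0.104%, 0.265% and 0.408% of all genes. None lay below them in C57BL/6J, 129S1/SvImJ, CAST/EiJ, PWK/PhJ or NZO/HlLtJ, as did 0.121%, 0.138%, 1.62%, 1.65% and 0.127%.

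By sex, 1 of the 57 genes was called, Pcdhb3, with 9.67 ± 3.56 CPM in females and 8.30 ± 3.18 CPM in males (n = 32 each). The female level was higher in 7 of 8 strains, and CAST/EiJ was the exception. The log2 difference was 0.22 ± 0.05 (SE), with an edgeR adjusted p of 0.039, and 0.167% of all genes were called. The libraries of the sexes overlapped, and the call was lost in 23 of the 64 fits that left out 1 library and in the fit without the 4 libraries of shifted balance. At an unadjusted p under 0.05, 14 of the 57 genes differed by sex, against 5.3% of all genes tested. No interaction of strain and sex was called by edgeR, where 0.046% of all genes were called. At an unadjusted p under 0.05 there were 4 of the 57, against 10.7% of all genes.

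Other genes of the pathway were read against the 26.3% of all genes called for strain and the 89.2% that passed without the fold minimum. The share called depends on level: in a fit of the 13117 genes with a mean of at least 50 counts it was 12.9%. The lists were not matched to other genes by level. Of 23 tested genes for CTCF, cohesin, DNA methylation and related control of promoter choice, none was called by the edgeR F test with a range of at least 1, and 17 passed without the fold minimum. Of 22 partners and signalling genes, such as kinases and the WAVE complex, none was called, and 18 passed without the minimum. The 10 nonclustered delta protocadherins, which belong to the same family but stand alone in the genome, gave no call, and all 10 passed without the minimum. The median range of these lists was 0.24, 0.26 and 0.43 on the log2 scale, beside 0.54 for all genes tested. No test compared these lists with the members or with other genes. Of 15 tested genes next to or between the clusters, 2 were called, Cd14, the lipopolysaccharide co-receptor of myeloid cells, with a range of 1.55 and Dnd1, an RNA-binding protein of germ cells, with 1.13. Cd14 was highest in PWK/PhJ at 4.57 CPM, and Dnd1 in CAST/EiJ at 1.46 CPM.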

How the data were processed

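RNA from hippocampus was extracted with a TRIzol Plus kit with on-column DNase and made into TruSeq libraries, per the labels' protocols. The authors deposited a table of whole-number counts per gene for 64 libraries, named for Ensembl 105, and GRCm39 is given per the submitters' processing notes. The aligner, the counter, its use of strand and whether strain genomes were used are not given in the sources used here. Of the columns, 50 match the first parts of 1 title and 14 are 1 digit shorter than it, and strain and sex came from the labels. Replicate numbers follow deposition order only.

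Genes were kept with edgeR's filterByExpr (minimum count 10, minimum total 15), which left 17382 of 32227. edgeR 4.0.16 in R 4.3.3 fitted 16 means of strain and sex with TMM factors by quasi-likelihood, with 48 residual degrees of freedom. Strain was tested with an F test over the 8 strains and with each strain set against the average over the 7 others, sex with strains weighted equally, and the interaction of strain and sex. Adjusted p-values are Benjamini-Hochberg over all genes tested, with a threshold of 0.05 and, for strain, a log2 fold minimum of 1. The test code was tested on simulated data. Alternatives used DESeq2 1.42.0, other filters, fold minimums, covariates and subsets of libraries. Fits that left out 1 library kept the dispersions of the full table. Leaving out the 4 libraries of highest short-to-long ratio, and that ratio as a covariate, were chosen after seeing the data. Exon sharing and identity come from GENCODE M21, an earlier build, in which 99.6% of identifiers matched, and no coordinates are given for that reason.

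The clustered protocadherins and the gene lists were chosen with earlier results of these data known. Genes named with values are the 5 C-type isoforms, the 3 of widest range and the 1 of highest mean in the alpha, beta, gamma A and gamma B groups, the largest called rise and fall of each strain, and any called for sex. Other lists are named where called. Any other gene with values, and the runs of neighbours, were chosen after the values were seen.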

Additional observations from a re-analysis of the deposited data

Results flagged for a closer look

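In each strain, the lowest and the highest of the 8 libraries were checked for a gap to the next library that, as a share of the strain's whole range, exceeds Dixon's critical value, for the cluster sums and the named isoforms. Of 192 such groups, 31 had a library that far from the rest, and chance gives about 1 in 20.

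The 4 libraries of shifted transcript balance account for most of them. Pcdhgc4 was high in all 4, at 230.3 CPM in C57BL/6J male 4, 336.1 in 129S1/SvImJ female 1, 271.4 in A/J male 2 and 246.8 in WSB/EiJ female 1. In 129S1/SvImJ female 1, low values were found for the alpha sum (155.1 CPM), Pcdhac1 (5.62), Pcdhac2 (47.3), Pcdhgc3 (70.7), Pcdhgc5 (108.4) and Pcdhgb6 (10.9). In A/J male 2, Pcdhac2 (46.3), Pcdhgc3 (76.4), Pcdhgc5 (109.4) and Pcdhgb6 (4.38) were low. In WSB/EiJ female 1, the alpha sum (160.0), Pcdhac2 (50.5), Pcdhgc5 (133.5) and Pcdhgb6 (10.2) were low. In C57BL/6J male 4, Pcdhgb6 (18.2) and Pcdhga4 (11.8) were low.

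The other 11 were spread over 8 libraries. PWK/PhJ female 3, the library with the highest Pcdha1, was also high for the beta sum (167.6 CPM), Pcdhb3 (9.39) and Pcdhb1 (0.259). PWK/PhJ male 1 was high for Pcdhga5 (16.2) and low for Pcdhgb5 (21.9). PWK/PhJ male 3 was high for Pcdha7 (14.1) and PWK/PhJ female 4 for Pcdhb9 (16.7). C57BL/6J female 4 was high for Pcdha4 (18.03), WSB/EiJ male 4 for Pcdhb1 (0.455) and CAST/EiJ male 3 for Pcdhb3 (7.82). NZO/HlLtJ male 2 was low for Pcdhga4 (14.2).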

How the results depend on the processing

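No result changed direction under any alternative run. The count of 39 genes called for strain was between 37 and 40 under the other filters, normalizations, tools, covariates and subsets. It was 56 with no fold minimum and 10 with a log2 minimum of 2. Covariates entered the F test behind this count but not the range of strain means. With no fold minimum, the genes higher and lower against the other 7 strains numbered 23 and 14 in C57BL/6J, 26 and 10 in 129S1/SvImJ, 14 and 21 in NOD/ShiLtJ, 16 and 14 in A/J, 22 and 23 in CAST/EiJ, 20 and 25 in PWK/PhJ, 18 and 15 in NZO/HlLtJ and 10 and 17 in WSB/EiJ. With a minimum of 2 they were 0 and 0 in C57BL/6J, NOD/ShiLtJ and NZO/HlLtJ, 0 and 1 in 129S1/SvImJ and A/J, 2 and 1 in CAST/EiJ, 2 and 0 in PWK/PhJ and 1 and 2 in WSB/EiJ. With a mean of at least 50 counts, which drops Pcdhb1, 1 gene was lower in C57BL/6J and 0 were higher in NOD/ShiLtJ and in NZO/HlLtJ. With the short-to-long ratio as a covariate, 2 were higher and 1 was lower in C57BL/6J and 4 differed by sex, against 3 by sex with DESeq2. With the choroid plexus covariate 2 were higher in NZO/HlLtJ, and without the CAST/EiJ females 5 were lower in CAST/EiJ. The cause was not tested. As each of the 64 libraries was left out, 38 to 41 genes were called for strain, and the count was 1 to 3 lower in C57BL/6J (1 without its female 4 or male 4), 1 to 2 higher in NOD/ShiLtJ (2 without its female 2, male 1 or male 4 or without A/J male 4), 1 to 4 higher in A/J, 1 to 2 higher in NZO/HlLtJ (2 without its female 4) and 0 to 2 by sex. No paired analysis was possible because the labels carry no replicate numbers. Depth limits Pcdhb1 in all strains, Pcdha7 in WSB/EiJ and Pcdha8 in 129S1/SvImJ, NOD/ShiLtJ and NZO/HlLtJ, with 85, 93 and 91 counts over 8 libraries.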
